A study of Mus musculus with 2 samples.

Results

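The 4 Hox clusters of the mouse genome were examined in DNA methylation maps of liver. Their members were all CpG cytosines with at least 10 reads in both deposited libraries that lie in chr6:52145000-52270000 (Hoxa), chr11:96185000-96375000 (Hoxb), chr15:102915000-103040000 (Hoxc) and chr2:74660000-74770000 (Hoxd) of the build mm10. The rule found 4990 cytosines of the 1621314 shared by both libraries on all chromosomes, with 1530 in Hoxa, 1171 in Hoxb, 823 in Hoxc and 1466 in Hoxd. They were described by cluster and by 38 Hox genes. No methylation value entered the rule.

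The study mapped methylation by reduced representation bisulfite sequencing (RRBS), in which DNA is cut at sites holding a CpG, converted with bisulfite and sequenced, so that a methylated cytosine is still read as C. Its title names the question as the change in liver DNA methylation with an overnight fast. One group was liver of untreated CD-1 mice and the other liver of CD-1 mice fasted for 12 hr, both 12-week-old and kept on standard chow. There was 1 library in each group. CD-1 is an outbred stock, the sex of the mice is not given, and the labels do not say whether a library came from 1 mouse or from a pool, so no spread between animals could be estimated and every test below compares 2 libraries, not 2 conditions. All intervals and tests cover counting error only, and treat reads as independent draws. Reads amplified by PCR are not independent molecules, so even this error may be understated.

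Hox genes encode homeodomain transcription factors that give cells their position along the body axis. They stand in clusters in the order in which they are used, with low-numbered genes (paralog groups) acting towards the head and high-numbered genes towards the tail and the limb ends. In tissues that do not use them, Hox clusters are classically held by Polycomb complexes and the histone mark H3K27me3 rather than by DNA methylation, and their many CpG islands are typically poor in methylation. Adult liver is not a main site of Hox function.

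Promoter sequences are shown first, with the measured CpGs in them marked. RefSeq promoters of the build GRCm38.p6 (250 bases before to 50 after a start of transcription) were at hand for 22 of the 38 members, as 24 promoters of 300 bases. These promoters hold 288 of the 4990 Hox cytosines, so most values below come from elsewhere in the clusters. In each cluster the one with the most measured cytosines is printed, and Hoxb1 as the one with the highest mean level of all. Capitals mark the CpGs measured on at least 1 strand by the rule above.
Hoxa5: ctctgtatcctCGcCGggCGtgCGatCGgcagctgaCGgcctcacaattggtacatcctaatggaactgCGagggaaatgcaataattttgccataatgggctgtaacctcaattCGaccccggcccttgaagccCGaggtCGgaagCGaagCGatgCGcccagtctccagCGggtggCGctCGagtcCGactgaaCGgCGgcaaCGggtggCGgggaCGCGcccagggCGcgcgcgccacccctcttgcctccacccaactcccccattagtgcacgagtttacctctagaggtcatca
Hoxb8: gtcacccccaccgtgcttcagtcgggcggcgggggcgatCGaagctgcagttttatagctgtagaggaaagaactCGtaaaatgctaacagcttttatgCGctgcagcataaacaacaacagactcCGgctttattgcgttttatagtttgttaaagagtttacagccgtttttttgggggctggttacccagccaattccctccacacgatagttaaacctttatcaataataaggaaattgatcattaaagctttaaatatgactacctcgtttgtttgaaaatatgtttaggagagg
Hoxb1: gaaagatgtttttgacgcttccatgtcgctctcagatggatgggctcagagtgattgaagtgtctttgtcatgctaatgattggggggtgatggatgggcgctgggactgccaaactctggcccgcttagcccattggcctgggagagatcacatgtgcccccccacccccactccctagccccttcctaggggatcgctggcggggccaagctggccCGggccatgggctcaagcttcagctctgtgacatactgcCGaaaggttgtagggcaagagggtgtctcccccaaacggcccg
Hoxc4: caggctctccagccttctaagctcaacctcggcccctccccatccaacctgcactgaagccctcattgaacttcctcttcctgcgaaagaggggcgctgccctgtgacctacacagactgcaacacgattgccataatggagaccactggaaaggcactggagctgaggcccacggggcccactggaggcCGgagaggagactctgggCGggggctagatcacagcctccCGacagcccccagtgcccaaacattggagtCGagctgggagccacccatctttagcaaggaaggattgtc
Hoxd1: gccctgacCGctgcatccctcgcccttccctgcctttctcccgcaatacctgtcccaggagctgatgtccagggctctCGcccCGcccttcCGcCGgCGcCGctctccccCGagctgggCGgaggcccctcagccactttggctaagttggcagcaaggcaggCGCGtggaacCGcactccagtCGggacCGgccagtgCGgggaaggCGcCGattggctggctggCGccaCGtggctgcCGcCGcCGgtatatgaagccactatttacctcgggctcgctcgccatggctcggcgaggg
The Hoxa5 promoter lies at chr6:52204538-52204837 on the minus strand, Hoxb8 at chr11:96281655-96281954, Hoxb1 at chr11:96365508-96365807, Hoxc4 at chr15:103034145-103034444 and Hoxd1 at chr2:74762730-74763029, the last 4 on the plus strand. Hoxa5 and Hoxd1 each hold 29 CpGs, of which 24 and 22 were measured. Hoxb8, Hoxb1 and Hoxc4 hold 13, 10 and 9 CpGs, of which 4, 2 and 4 were measured. The first pair of promoters was therefore read at most of its CpGs, and the other 3 at a few sites only.

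The enzymes used cut at CCGG (MspI) and TCGA (TaqαI), both of which read the same on either strand and cannot overlap each other. At least 1 of these sites was present in 91.7% of the 24 Hox promoters, against 60.5% of all 32851 promoters of the table. CCGG alone was present in 79.2% of Hox promoters against 52.8% of all, and TCGA in 45.8% against 22.0%. The median Hox promoter held 14.5 CpGs, against 7 over the whole table. Hox promoters were thus richer in CpGs and in cut sites than the table as a whole, although 7 of the 24 gave no shared cytosine.

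The libraries held 49253627 (control) and 51276705 (fasted) reads over cytosines, a read counting once for each cytosine it covers. Within the Hox clusters the median cytosine had 21 reads in each library, against 18 and 19 over the autosomes. Of the 8141 Hox cytosines listed in either library, 61.3% reached 10 reads in both. The label of the tissue was set against marker genes of liver cell types, for which methylation is only an indirect sign. The spans of 11 of 14 hepatocyte markers could be measured and had a median level of 22.9%, below those of 7 leukocyte markers (69.9%) and 6 endothelial markers (73.5%). Stellate and fibroblast markers (5) had a median of 40.8% and cholangiocyte markers (4) one of 29.8%. Some markers differed between the libraries by more than any Hox gene described here. Eng, an endothelial receptor, had 65.3% and 82.7% and was called (17.4 points, adjusted p = 3.97e-09 by Fisher's exact test). Tie1 (7.66 points), Krt7 (-6.15) and Col1a1 (-5.70) passed the test without reaching 10 points, and no hepatocyte or leukocyte marker passed it. The part of such differences in the Hox values was not tested. Albumin, the main plasma protein made by hepatocytes, had too few measured cytosines to be included.

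The Hox clusters were low in methylation in both libraries, and the cluster means of both libraries lay within about 1 percentage point of each other. The level of a cytosine is the percent of its reads that were methylated, and cluster levels are means over cytosines. Hoxa had 7.76% in the control library (95% interval 7.46 to 8.05) and 6.87% after the fast (6.60 to 7.14). Hoxb had 7.30% (6.97 to 7.63) and 7.17% (6.85 to 7.49). Hoxc had 6.84% (6.45 to 7.22) and 6.11% (5.75 to 6.46). Hoxd was lowest in both, with 5.51% (5.26 to 5.76) and 5.36% (5.12 to 5.60).

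In percentage points, fasted minus control, the difference was -0.882 in Hoxa (-1.28 to -0.485) and -0.732 in Hoxc (-1.26 to -0.207). Both intervals leave out 0, and the Hoxc difference was -0.261 with a minimum of 20 reads. In Hoxb it was -0.129 (-0.588 to 0.329) and in Hoxd -0.146 (-0.493 to 0.201), and these intervals include 0. The sign of both turned under an alternative, to 0.410 points in Hoxb with each read weighted equally and to 0.255 points in Hoxd with a minimum of 20 reads. Over all 4 clusters the mean went from 6.84% to 6.37%, a difference of -0.464 points (-0.675 to -0.254). The autosomes, at 35.4% and 35.5%, differed by 0.081 points, but these sets differ in level. Cytosines with a mean of both libraries under 10% differed by -0.251 points in the Hox clusters and 0.00904 over the autosomes. From 10% to 25% the differences were -0.816 and -1.15 points, and from 25% to 50% they were -2.76 and -0.793. The classes from 50% up held only 11 and 7 Hox cytosines. A list of 67 other developmental homeobox genes had 6.69% and 6.61% over 12066 cytosines outside the cluster intervals, a difference of -0.078 points (-0.197 to 0.041). That set takes gene spans with 1000 bp on either side, whereas the Hox set takes whole intervals, so they are not built alike. Hox cytosines inside a member span differed by -0.160 points (-0.402 to 0.0823), and those outside but within 1000 bp by -1.15 (-1.84 to -0.457). With 1 library a group, it was not tested whether differences of this size are larger than those between animals.

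**Figure D1:**
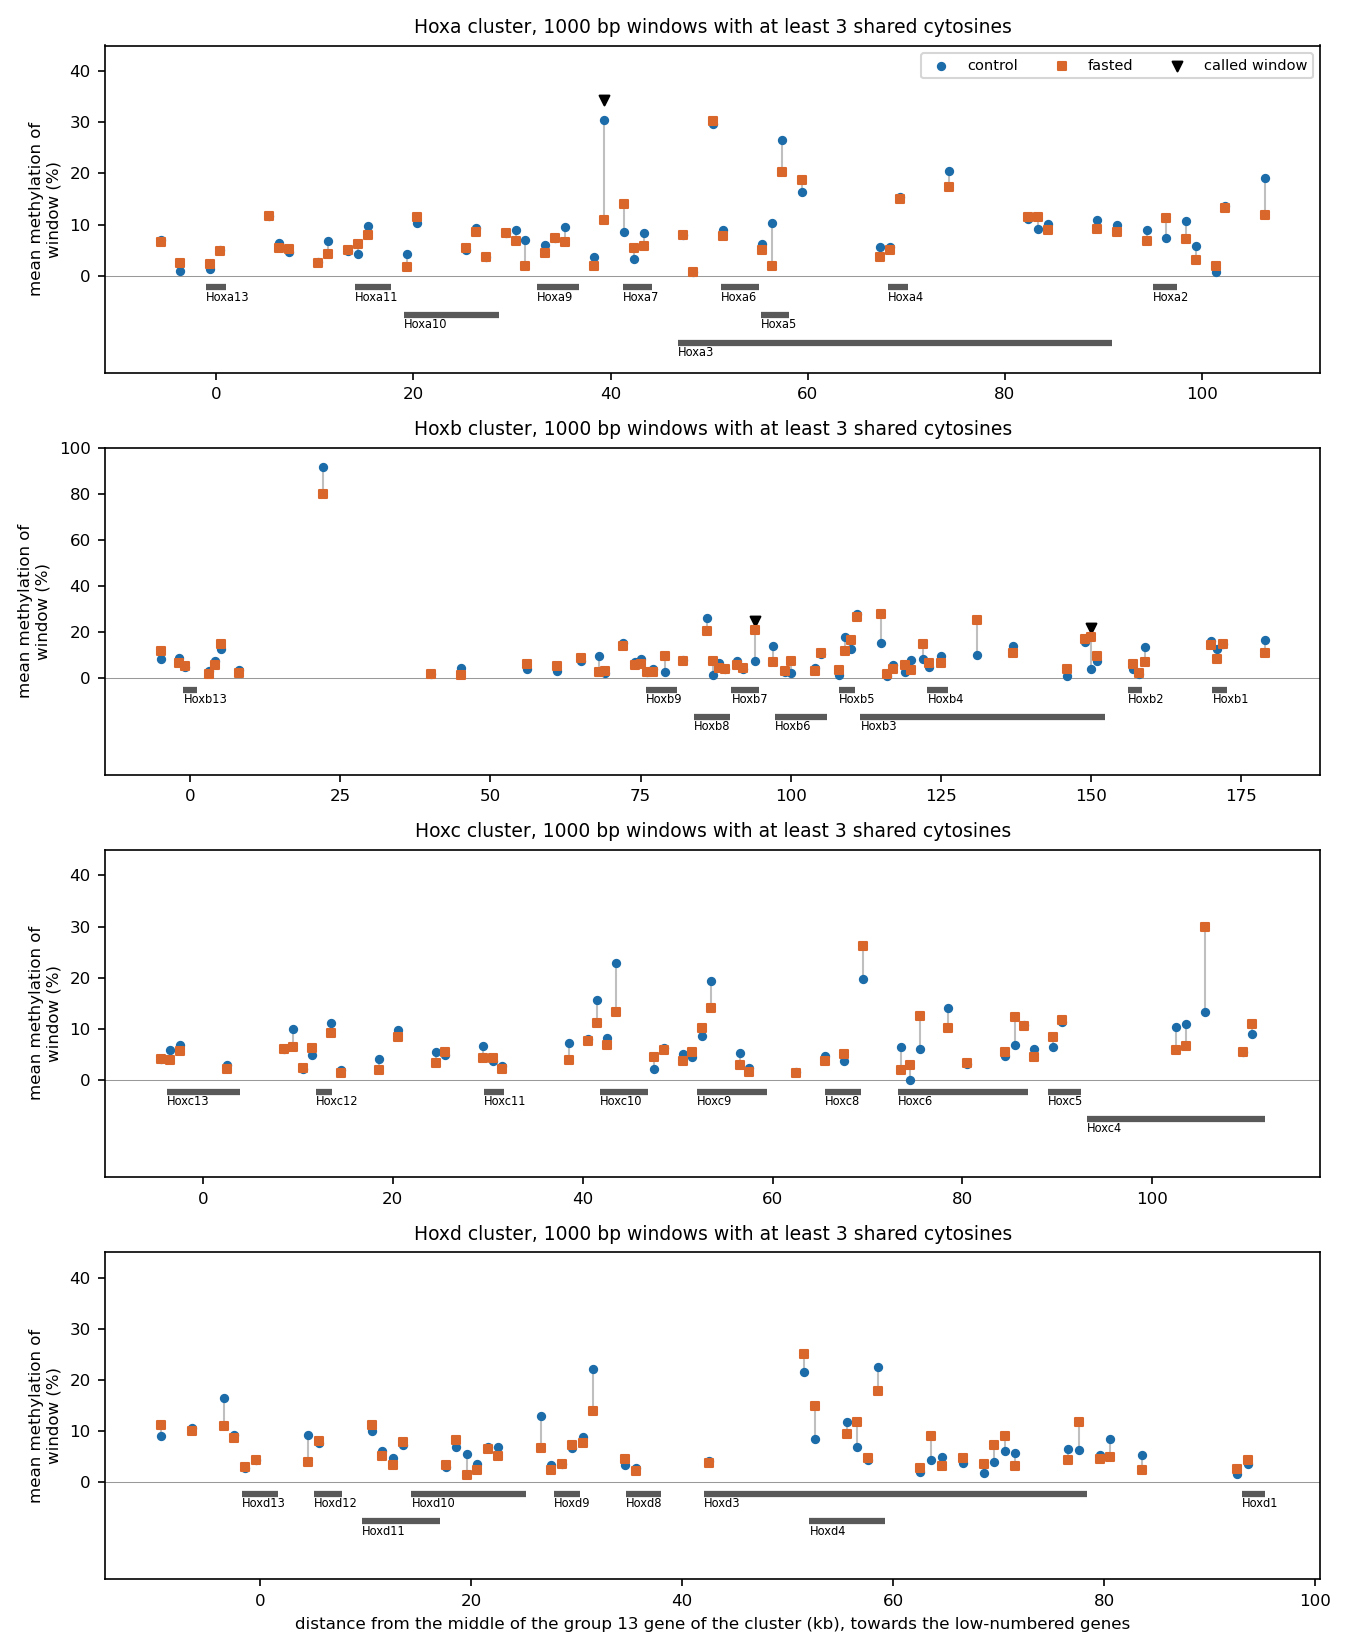
Mean methylation (percent, vertical axis) of each 1000 bp window with at least 3 shared cytosines, by distance in kb from the middle of the group 13 gene of each cluster; circles are the control and squares the fasted library, grey bars below 0 are the Hox genes and triangles mark called windows. Most windows lie under 10% in both libraries, the 3 triangles stand between Hoxa7 and Hoxa9, in Hoxb7 and at the far end of Hoxb3, and the window at 91.7% and 80% lies between Hoxb13 and Hoxb9. The vertical axis of the Hoxb panel runs higher than the others.

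The distribution of levels within the clusters differed in shape from that of other homeobox genes. The latter set takes gene spans and flanks, not whole intervals. By the mean of both libraries, 78.2% of Hox cytosines were under 10% methylated, against 84.3% at the other homeobox genes and 53.2% over the autosomes. The class from 10% to 25% held 17.9% of Hox cytosines, 10.7% at other homeobox genes and 4.44% over the autosomes. At 80% or more stood 0.1403% of Hox cytosines, which are 7 cytosines, against 1.37% and 27.3%. Hox cytosines were thus rarely fully methylated and more often at a low but nonzero level. Both libraries showed no methylated read at 24.0% of Hox cytosines, against 32.7% at other homeobox genes.

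Of the 7 cytosines at 80% or more, 6 were in Hoxb, 5 between 20537 and 23419 bp beyond Hoxb13 and 1 at 34758 bp from Hoxb9, in the long interval that separates Hoxb13 from the rest of its cluster. The seventh was in Hoxa, at position 52202741 in the spans of Hoxa5 and Hoxa3, with 88.2% of 17 reads in the control library versus 83.3% of 12 reads in the fasted one. The other strand of the same CpG had 84.2% of 19 reads and 64.7% of 17 reads. This CpG stayed methylated on both strands in both libraries while the Hoxa5 span around it was at 9.43% and 6.46%. The 1000 bp that hold it, chr6:52202001-52203000, were above the span mean, with 26.5% and 20.4% over 22 cytosines.

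**Figure D2:**
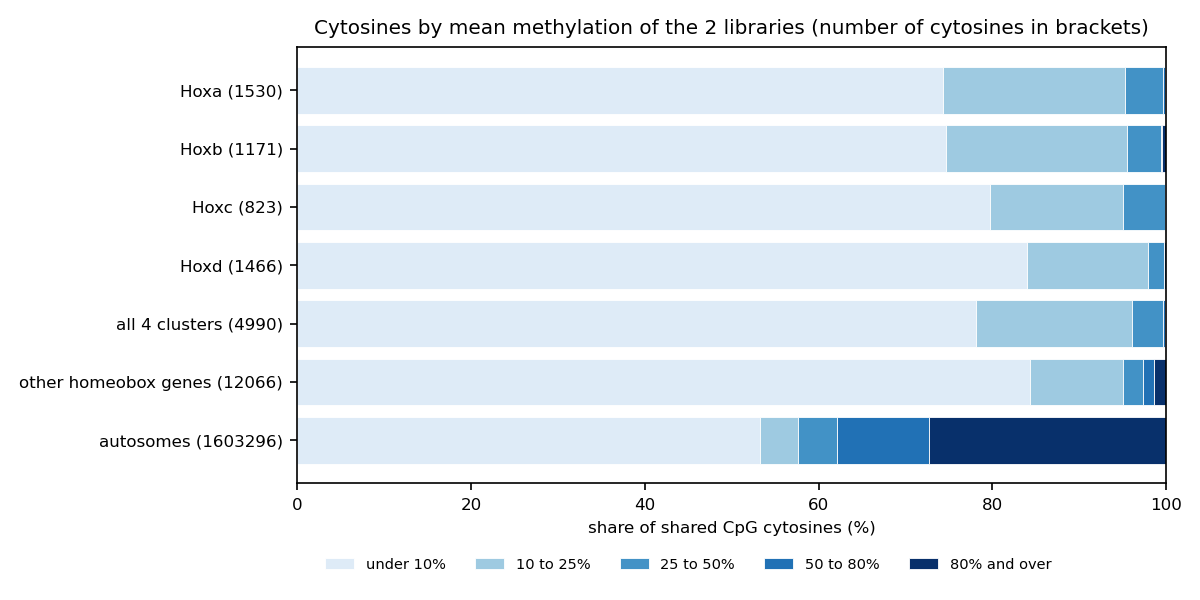
Share of shared CpG cytosines (percent, horizontal axis) in 5 classes of mean methylation of both libraries, for each Hox cluster, the 4 clusters together, the other homeobox genes and the autosomes, with the number of cytosines in brackets. The class under 10% holds 78.2% of Hox cytosines and 53.2% of autosomal ones, and the class of 80% and more is nearly absent from the Hox bars.

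Single Hox cytosines differed between libraries about as much as the strands of a CpG did within a library. Over 1757 CpGs read on both strands, the mean absolute difference between strands was 5.82 points in the control library versus 5.18 points in the fasted one. Between libraries it was 5.60 points on the plus and 5.76 points on the minus strand. Across the 4990 Hox cytosines, which share libraries and often molecules, Pearson's r between libraries was 0.601 and Spearman's rho 0.388. Both are smaller than over the autosomes (0.969 and 0.899), where levels span the whole range.

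The Hox genes were next described one by one, each by its annotated span with 1000 bp on either side. Strand and exons are not needed for this, and spans overlap, so that Hoxa3 (44009 bp) also takes in cytosines of Hoxa4, Hoxa5 and Hoxa6, Hoxb3 those of Hoxb4, and Hoxd3 those of Hoxd4. A gene was called when Fisher's exact test on summed reads, adjusted by Benjamini-Hochberg over 25240 autosomal gene spans, gave p under 0.05 and the mean levels differed by at least 10 points. None of the 38 members was called, and over all spans 0.769% were called with a higher and 0.745% with a lower fasted level. Without the minimum of 10 points, 5 of 38 members passed, 13.2% against 12.4% of all spans, which is near the background.

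Member levels, as the mean of both libraries, ran from 2.54% (Hoxa13) to 12.2% (Hoxd4) with a median of 6.45%. Under 10% were 34 of 38 members (89.5%), against 26.8% of all spans. The level was higher in the fasted library for 14 members and lower for 24, and the median difference was -0.495 points, against 0.00292 over all spans. The difference was within 1 point for 20 members and within 2 points for 33.

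In Hoxa the highest member was Hoxa3, needed for thymus and parathyroid formation, with 9.77% in the control library versus 8.41% in the fasted one over 585 cytosines (-1.36 points, -2.04 to -0.684). Hoxa5, which takes part in lung and rib cage patterning, had 9.43% and 6.46% over 177 cytosines (-2.97, -4.06 to -1.88, and -1.69 with a minimum of 20 reads). Its neighbour Hoxa6 had 8.48% and 6.43% over 228 cytosines (-2.05, -2.998 to -1.10). These 3 spans share cytosines, so they are not separate cases. All 3 had an adjusted p under 0.05 by Fisher's exact test (0.000144 for Hoxa3, 0.0012 for Hoxa5, 0.015 for Hoxa6), and none reached 10 points. The lowest members were Hoxa13, which patterns digits and the urogenital tract, with 2.22% and 2.85% over 114 cytosines, and Hoxa7, a gene of trunk patterning, with 5.23% and 6.21% over 66. No methylated read was seen in either library at 50.9% of the Hoxa13 cytosines.

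In Hoxb the highest member was Hoxb1, the hindbrain gene that sets the identity of rhombomere 4, with 13.6% and 10.4% over 50 cytosines (-3.20 points, -6.03 to -0.360). Its adjusted p was 0.124 by Fisher's exact test, and the difference was -1.44 points with strands merged. Hoxb4, known for its part in blood stem cell growth, had 8.93% and 6.76% over 86 cytosines (-2.17, -3.94 to -0.395), with an adjusted p of 0.744 by Fisher's exact test. The Hoxb4 difference was -0.947 with a minimum of 5 reads and -0.642 with each read weighted equally. Hoxb2, a hindbrain gene, had 5.82% and 4.20% over 108 (-1.63, -2.90 to -0.346) and 0.708 points without the 1000 bp flanks, and Hoxb9 was lowest with 3.69% and 3.28% over 146. The span of Hoxb3 went the other way, with 8.73% and 10.03% over 277 cytosines (1.30, 0.174 to 2.42, adjusted p = 0.0011 by Fisher's exact test). It was the 1 member of the 5 passing the test with a higher level in the fasted library. The Hoxb3 difference was 0.272 points with a minimum of 5 reads and 0.638 with strands merged. Of its 277 cytosines, 27 lie in a called window described below, where the difference was 14.04 points. The span and that window are therefore not separate cases.

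In Hoxc the highest member was Hoxc5, with 9.44% and 10.6% over 55 cytosines (1.20 points, -1.12 to 3.52, and 0.0424 with a minimum of 20 reads). Hoxc10, which acts in lumbar and hindlimb patterning, had 10.3% and 7.98% over 69 cytosines (-2.32, -4.46 to -0.174), with an adjusted p of 0.315 by Fisher's exact test. The Hoxc10 difference ranged from -3.93 with a minimum of 5 reads to -0.534 with a minimum of 20. Hoxc13, needed for hair and nail keratins, had 5.09% and 3.73% over 105 (-1.36, -2.62 to -0.111, adjusted p = 0.0482 by Fisher's exact test). Hoxc4 had 9.85% and 8.57% over 84 cytosines (-1.29, -3.14 to 0.570), and Hoxc11 was lowest with 4.40% and 3.56% over 67. Except for Hoxc5, the members named here were lower in the fasted library, and the Hoxc4 and Hoxc11 intervals include 0.

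In Hoxd lay the highest member of all 4 clusters by the mean of both libraries, Hoxd4, a gene of the cervical spine, with 11.9% and 12.4% over 82 cytosines (0.506 points, -1.47 to 2.49). Hoxd1, at the end of the cluster and known from pain-sensing neurons, had 3.58% and 4.70% over 122 cytosines (1.12, 0.129 to 2.10), and 0.582 points with a minimum of 20 reads. Hoxd9 had 4.99% and 4.21% over 191 (-0.781, -1.69 to 0.131), and Hoxd3 had 6.36% and 7.09% over 360 (0.736, -0.0314 to 1.503). Hoxd8 was lowest, with 2.94% and 2.82% over 97. No Hoxd member had an adjusted p under 0.05 by Fisher's exact test.

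**Figure D3:**
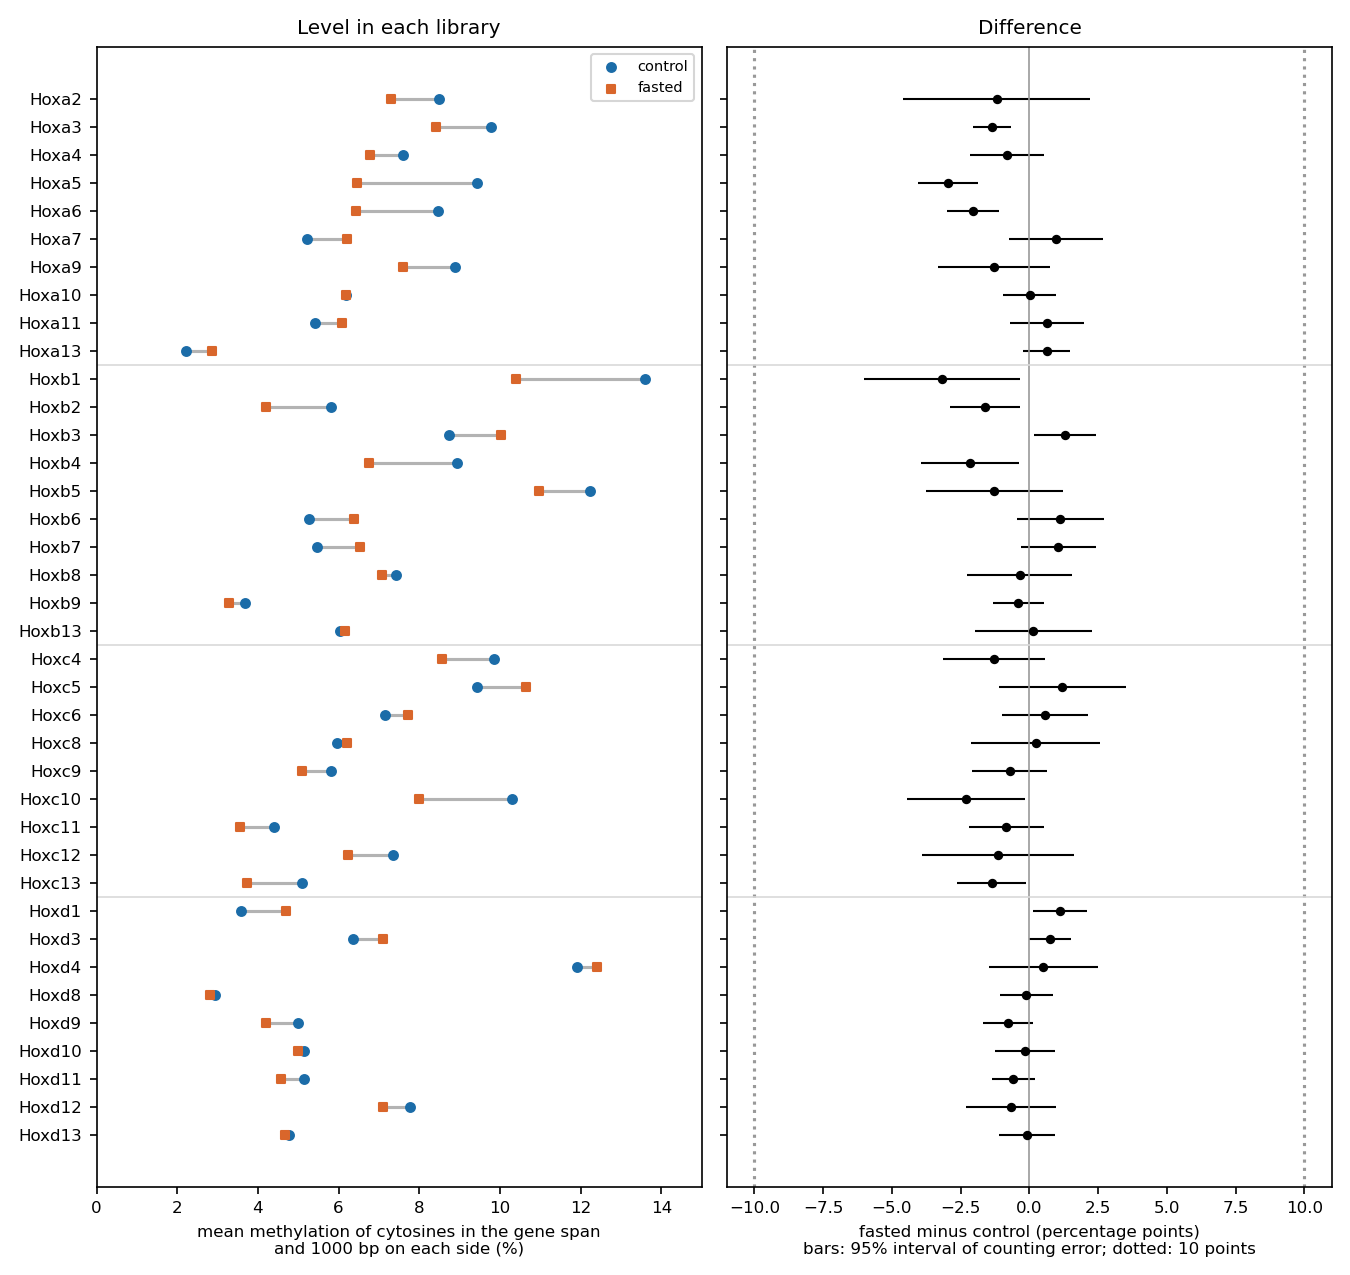
Left, mean methylation (percent) of each of the 38 Hox genes in the control (circles) and fasted (squares) library; right, the difference in percentage points with its 95% interval of counting error, dotted lines at 10 points. Levels run from 2.22% to 13.6% in the control library, and no interval reaches the dotted lines.

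The members not named above all differed by less than 2 points. Of those named, Hoxa7, Hoxb2, Hoxc11, Hoxd3, Hoxd4, Hoxd8 and Hoxd9 changed the sign of their difference under at least 1 alternative. The 11 members of paralog groups 1 to 4 had a median level of 7.89%, the 11 of groups 5 to 8 a median of 7.26%, and the 16 of groups 9 to 13 a median of 5.26%. The ranges overlap widely, from 4.14% (Hoxd1) to 12.2% (Hoxd4) in the first class and from 2.54% (Hoxa13) to 9.14% (Hoxc10) in the last. The fasted library was lower for 7 of 11, 5 of 11 and 12 of 16 members. The posterior genes were thus somewhat poorer in methylation as a description of these spans, with no test.

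Cytosines were also split by their distance from the genes, as a description with no test between the classes. The 3674 cytosines inside a member span had 6.52% and 6.36% (-0.160 points, -0.402 to 0.0823). The 813 cytosines over 1000 bp from any member span had 7.66% and 6.24% (-1.42, -1.95 to -0.880), and the 503 in between had 7.84% and 6.69% (-1.15, -1.84 to -0.457). The pooled order did not hold in every cluster. Within 1000 bp outside a span the difference was -0.546 points in Hoxa and -0.654 in Hoxc, close to -0.582 and -0.652 inside the spans, and the Hoxc control level was lower outside (6.27%, and 5.45% over 1000 bp away) than inside (7.36%). In Hoxa the 311 cytosines far from genes had 8.31% and 6.24%. The called Hoxa window described next lies among them.

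Windows of 1000 bp with at least 3 cytosines were tested in the same way, with the same thresholds of p and 10 points. Of 209 windows in the clusters, 3 were called, 2 with a higher and 1 with a lower fasted level. Over the 124884 autosomal windows the shares called were 1.06% higher and 0.942% lower, so the Hox counts are near the background. Levels were under 10% in 155 Hox windows (74.2%) and at 25% or more in 3 (1.44%), against 20.6% and 74.4% of autosomal windows. Among CpG-dense windows with 20 or more cytosines, the median level was 5.05% in the 88 Hox windows and 1.01% in 16314 autosomal ones. Dense Hox windows were low in methylation, but their median was above that of dense windows elsewhere.

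The window called lower was chr6:52220001-52221000, 1428 bp outside Hoxa7 towards Hoxa9, in no member span. Its 11 cytosines, all on the plus strand, had 30.4% in the control library versus 11.002% in the fasted one (-19.4 points, -28.1 to -10.7, adjusted p = 0.00131 by Fisher's exact test). Of these, 9 were lower and 2 higher. They had 11 to 15 reads in the control library versus 13 to 15 in the fasted one, and 7 of them shared the same 15 and 13 reads, so the window rests on few molecules.

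The window with the smallest p in the clusters was chr11:96345001-96346000, inside Hoxb3 and its antisense transcript gene Hoxb3os. Its 27 cytosines had 3.81% in the control library versus 17.8% in the fasted one (14.04 points, 9.87 to 18.2, adjusted p = 1.49e-08 by Fisher's exact test), and 23 were higher. The plus strand went from 1.04% to 17.2% and the minus strand from 6.02% to 18.4%. Both strands moved the same way, with 11 to 16 reads in the control library versus 13 to 25 in the fasted one. Another window called higher was chr11:96289001-96290000 inside Hoxb7, a gene of the thoracic axis. Its 10 cytosines, within 60 bp, had 7.53% and 20.7% (13.2 points, 7.15 to 19.2, adjusted p = 0.0299 by Fisher's exact test), and all 10 were higher. They had 11 to 28 reads in the control library versus 20 to 54 in the fasted one.

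A further window, chr6:52203001-52204000 inside Hoxa5 and Hoxa3, is described although it was chosen after its values were seen. Its 31 cytosines within 154 bp had 10.3% in the control library versus 1.94% in the fasted one (-8.34 points, -10.8 to -5.84, adjusted p = 3.47e-07 by Fisher's exact test), and missed the minimum of 10 points. Of the 31, 29 were lower, and no methylated read was seen at 20 of them in the fasted library and at 0 of them in the control. The plus strand went from 9.22% to 2.71% and the minus strand from 11.4% to 1.12%. Depth ran from 17 to 73 reads in the control library versus 18 to 68 in the fasted one. The largest group of equal depth, 10 cytosines on the plus strand, had 21 and 18 reads. With a minimum of 20 reads a cytosine, 11 remained and the difference was -3.53 points (adjusted p = 0.168 by Fisher's exact test). These 11 all lie 454 to 500 bp past the middle of the window, so that value covers only part of the stretch.

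**Figure D4:**
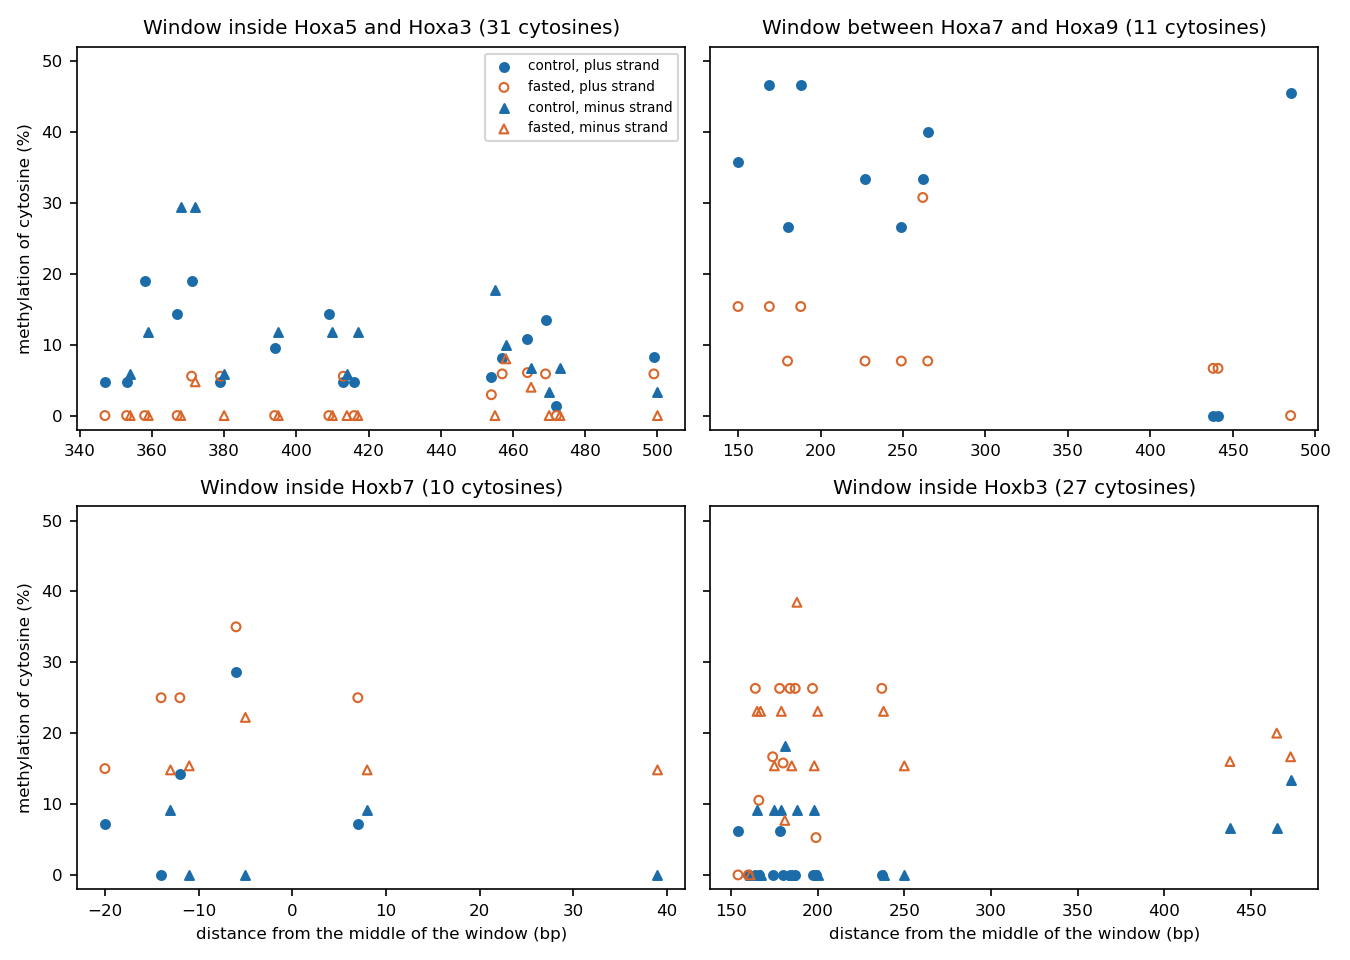
Methylation (percent) of every shared cytosine in 4 windows, by distance in bp from the middle of the window; filled symbols are the control and open symbols the fasted library, with a marker for each strand. In the Hoxa5 window 20 of 31 fasted values lie at 0, in the window between Hoxa7 and Hoxa9 9 of 11 are lower, and in the Hoxb7 and Hoxb3 windows 10 of 10 and 23 of 27 are higher.

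Neighbouring cytosines on the same fragments share reads, so summed reads overstate the number of molecules. In the clusters the 4990 cytosines fell into 2192 runs of equal depth, and 77.2% of them stood in a run of at least 2. When summed reads were divided by the number of cytosines in the window, none of the 3 windows was called. With read counts halved, the Hoxb3 window was still called, and the adjusted p by Fisher's exact test was 0.302 for the window between Hoxa7 and Hoxa9 and 0.878 for that of Hoxb7. With a minimum of 20 reads a cytosine none of these 3 was called. The Hoxb7 window then had an adjusted p of 0.187 by Fisher's exact test on 4 cytosines, and the others had fewer than 3 cytosines left. At that setting 3 other windows of the clusters were called, 2 with a higher and 1 with a lower fasted level. Windows of 2000 bp gave 2 calls of a higher and 0 of a lower fasted level.

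Other windows named by rule were not called. The most methylated window of Hoxa (chr6:52209001-52210000, in Hoxa3) had 29.7% and 30.2% over 8 cytosines. That of Hoxb lay between Hoxb13 and Hoxb9 (chr11:96217001-96218000), with 91.7% and 80% over 3. That of Hoxc lay in Hoxc8 (chr15:102994001-102995000), with 19.7% and 26.2% over 4. That of Hoxd lay in Hoxd3 and Hoxd4 (chr2:74721001-74722000), with 21.6% and 25.2% over 13. They lead by the mean of both libraries, and other windows were higher in 1 library alone.

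The largest differences by window outside Hoxa were also uncalled and rest on few cytosines. In Hoxb it was chr11:96326001-96327000 in Hoxb3, with 9.86% and 25.2% over 5 cytosines (15.4 points, adjusted p = 0.101 by Fisher's exact test). In Hoxc it was chr15:103030001-103031000 in Hoxc4, with 13.3% and 30% over 4 (16.7 points, adjusted p = 0.278 by Fisher's exact test). In Hoxd it was chr2:74701001-74702000, 793 bp from Hoxd9, with 22.2% and 14.01% over 8 (-8.22 points, adjusted p = 0.449 by Fisher's exact test).

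Single cytosines were called at an adjusted p under 0.05 and 25 points, with adjustment over 1603296 autosomal cytosines. In the clusters 2 passed with a higher and 0 with a lower fasted level, where the shares over the autosomes were 0.0448% higher and 0.0372% lower. At an unadjusted p under 0.05 by Fisher's exact test stood 125 Hox cytosines (2.51%), against 2.16% over the autosomes. Both called cytosines lay in group 13 genes, which pattern the digits and the tail end.

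The called Hoxa13 cytosine, at position 52260114 of chromosome 6 on the minus strand, had 0 of 61 methylated reads in the control library, which allows a level of up to 4.92% by 3 counts of the total (exact Clopper-Pearson upper bound 5.87%). In the fasted library it had 10 of 36 reads, or 27.8% (exact Clopper-Pearson interval 14.2 to 45.2, adjusted p = 0.0266 by Fisher's exact test). The other strand of the same CpG had 2.70% of 74 reads and 6.90% of 58 reads. The called Hoxd13 cytosine, at position 74668350 of chromosome 2 on the plus strand, had 0 of 73 reads in the control, which allows up to 4.11% by 3 counts (exact upper bound 4.93%), and 12 of 48 reads, or 25%, in the fasted library (interval 13.6 to 39.6, adjusted p = 0.0102 by Fisher's exact test). Its other strand had 0 methylated of 38 reads and 0 of 32. In neither case did the other strand show a change of that size. With the reads of both strands summed, the differences were 13.4 points at Hoxa13 and 15 points at Hoxd13, under the 25 required.

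The largest differences by cytosine in each cluster were not called (positions are those of mm10 on the chromosome of the cluster). In Hoxa, position 52219111 (538 bp from Hoxa7) had 55.6% of 27 reads and 10% of 20 reads, and position 52220985, in the called window, 45.5% of 11 and 0% of 14. In Hoxb, position 96354611 (591 bp from Hoxb2) had 58.8% of 17 and 14.3% of 14 reads, and position 96270200 (1130 bp from Hoxb9) 40% of 10 and 0% of 18. In Hoxc, position 103030343 in Hoxc4 had 0% of 15 and 50% of 20 reads, and position 103026960, also in Hoxc4, 35.7% of 14 and 0% of 16. These shifts go both ways within a gene. In Hoxd, position 74663334 (4891 bp from Hoxd13) had 43.8% of 16 and 0% of 17 reads, and position 74764182 in Hoxd1 17.4% of 23 and 55.6% of 18. Adjusted p by Fisher's exact test ran from 0.572 to 1 over these 8.

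Promoters could be compared where the RefSeq sequences gave a start of transcription. Of the 24 promoters, 15 had at least 3 shared cytosines, and their levels ran from 0.758% (Hoxd13) to 28.1% (Hoxb1) with a median of 6.31%. In the 15, the fasted library was higher in 9 and lower in 6. The Hoxd1 promoter printed above had 1.68% and 2.67% over 39 cytosines (0.997 points, -0.194 to 2.19), and the Hoxa5 promoter 6.86% and 5.62% over 45 (-1.24, -3.41 to 0.917). The interval of each of these differences includes 0.

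Of the promoters measured at few CpGs, Hoxd13 had the lowest level, 0% and 1.52% over 6 cytosines. Hoxb1, Hoxb8, Hoxc4, Hoxd4 and Hoxb4 had levels above the median of the 15. Hoxb1 had 28.6% and 27.6% over 3 cytosines (-1.01 points, -17.4 to 15.4), and Hoxb8, an axial gene also known from myeloid cells, 26.0% and 20.5% over 6 (-5.46, -17.8 to 6.89). Hoxc4 had 9.54% and 14.1% over 6 (4.54, -2.87 to 11.9), and Hoxd4 22.1% and 28.1% over 6 (6.002, -5.28 to 17.3). Hoxb4 had 11.1% and 9.88% over 3 (-1.23, -12.7 to 10.2). The intervals of all these differences include 0. The Hoxd9 promoter, with 4.14% and 0.714% over 14 cytosines (-3.43, -5.98 to -0.875), was named after its values were seen, as the 1 promoter of the 15 whose interval left out 0.

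The clusters also hold the microRNA genes of the mir-10 and mir-196 families, which repress messenger RNAs including some from Hox genes. Counted with 1000 bp on either side, Mir10b had 9.60% and 10.5% over 23 cytosines, and Mir10a 9.34% and 12.2% over 7. Mir196b had 8.57% and 7.95% over 72, Mir196a-2 3.73% and 5.00% over 25, and Mir196a-1 4.75% and 2.93% over 4. The interval of each difference included 0.

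Genes that regulate Hox clusters or act with Hox proteins were read from a list of 41, of which 40 were tested (Kdm6a is on the X chromosome). It holds Polycomb and Trithorax subunits, Cdx activators, and cofactors of Hox proteins. None was called, 19 were higher and 21 lower in the fasted library, and the median difference was -0.0444 points. The median level was 14.4%, and the lowest was 2.70% (Ctcf, which binds chromatin boundaries). The largest differences were those of Cbx6 (24.0% and 21.8%), a Polycomb chromodomain protein, Pcgf2 (8.39% and 6.22%), a Polycomb ring finger protein, and Aebp2 (13.9% and 15.9%), a cofactor of the H3K27 methylase complex. None of these 3 passed Fisher's exact test after adjustment. Of the 40, 4 others passed it (10%, against 12.4% of all spans), namely Pknox1, Phc3, Ezh1 and Ctcf. Their differences ran from -0.594 points (Pknox1) to 1.01 points (Phc3). The interval of the difference included 0 for Pknox1 (-1.28 to 0.0904), Ezh1 (-1.66 to 2.27) and Ctcf (-0.193 to 0.524), but not for Phc3 (0.0545 to 1.97).

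The 67 other homeobox genes likewise gave 0 calls, with 32 higher and 35 lower, a median difference of -0.112 points and a median level of 4.72%. The span of Evx2 reaches into the Hoxd interval, so its value shares cytosines with that cluster. Lhx6, a gene of forebrain interneurons, had 12.2% and 16.4% (4.21 points, 2.40 to 6.01, adjusted p = 0.00465 by Fisher's exact test). Pax7, the gene of muscle stem cells, had 11.3% and 13.4% (adjusted p = 3.36e-07 by Fisher's exact test). Otx2, a gene of the anterior head, had 6.17% and 4.17% (adjusted p = 0.189 by Fisher's exact test). Under 10% were 56 of these 67 genes, as were 34 of the 38 Hox members.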

How the data were processed

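Methylation was measured by RRBS in 1 control and 1 fasted liver library, grouped by title. Per the labels' protocols, DNA was cut with TaqαI and MspI, size selected, bisulfite converted and sequenced. Tools and build, from the submitters' processing notes, were bcl2fastq (1.8.4), Bismark (0.14.3) and mm10. For trimming, duplicates and overlapping read mates the settings are not stated in any source used here. The deposited score column is 1000 times the methylated fraction, rounded, and differed from the read counts in the deposited text field by at most 0.5.

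Those counts gave every level, with strands kept apart and no normalization. Cytosines, windows of 1000 bp and gene spans were compared by two-sided Fisher's exact tests with Benjamini-Hochberg adjustment over all autosomal features (Python 3.11.15, numpy 2.4.6, pandas 2.3.3). The code was run on simulated data in which each cytosine was drawn independently. Such data cannot show false calls that come from reads shared by neighbouring cytosines. Intervals of differences treat reads as independent draws. Genes, promoters and miRNAs came from RefSeq tables of GRCm38.p6, and all 288 promoter cytosines fell on CG in the printed strand. Exons and introns were not analysed here.

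Members and gene lists were chosen with earlier results of these data known. The text names in each cluster the highest and the 2 lowest genes, the 3 largest differences, every call, and for cytosines and windows the largest differences and highest level. Gene lists are described by calls and the 3 largest differences. Alternatives covered read minimum, coverage cap, strand merging, weighting, thresholds and window size.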

Additional observations from a re-analysis of the deposited data

How the results depend on the processing

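The Hoxa and Hoxc differences stayed negative under all alternatives tried, from -1.05 to -0.647 and from -0.836 to -0.261 points. The Hoxb difference was 0.410 points with each read weighted equally, and the Hoxd difference 0.255 points with a minimum of 20 reads, so neither has a settled direction. The cause was not tested. The cytosines called numbered 0 with strands merged and 0 with read counts halved. Of the windows called, 1 was left with read counts halved (the Hoxb3 window, adjusted p = 0.00176 by Fisher's exact test), 0 when summed reads were divided by how many cytosines a window held, and 6 with no minimum difference (3 higher and 3 lower), or 2.87% of windows against 2.88% over the autosomes. The Hoxb3 window differed by 9.01 points with a minimum of 5 reads and by 9.98 points with strands merged, under the 10 points required. The members called numbered 5 with no minimum difference (1 higher and 4 lower) and 0 otherwise. At 30 to 49 reads the depth of Hox cytosines was an even number for 75.7% (control) and 73.8% (fasted). The autosomal shares there were 72.0% and 72.2%. Most cytosines of the window called lower and of the Hoxb3 window lie at 10 to 19 reads. In that range the Hox shares were 47.1% and 49.8%, against 52.8% and 51.8% over the autosomes. Of the 38 members, 20 kept the sign of their difference throughout and 18 did not. The Hoxa5 difference was -1.69 points with a minimum of 20 reads. No paired analysis was possible because each group has 1 library, and for the same reason no library could be left out. At the median depth of 21 reads, shifts of a few points at a single cytosine were not detectable.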
